A study of Rattus norvegicus with 4 samples.

Results

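ABC transporter genes code for proteins that spend ATP to move lipids, peptides, metals, conjugates or drugs across membranes. The 41 genes described here are those with a probe whose accession maps to a rat symbol of the form Abca to Abcg followed by a number. They had 56 probes among 45598, and they are 41 of 16579 genes that could be named. Abca1 and Abcg1 were left out by this definition, as were family members with other symbols. The definition uses symbols and accessions and not signals, but it was set with earlier results of these data known.

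RNA came from 4 cultures of NR8383, a line of rat alveolar macrophages at passage 20. All 4 cultures (replicates 1 to 4) were seeded for 48 h in 25 cm2 flasks and incubated for 4 h with TiO2 (NRCWE001), a titanium dioxide powder, at a dose of 3 cm2/cm2, and the design text calls them biological replicates. Unexposed cells were not analysed here, and the values therefore describe exposed cells without a measure of the response to TiO2. Each culture was hybridised to an array of its own in 1 colour, so culture and array cannot be told apart. The line grows partly attached and partly floating, as 1 cell line from 1 source, and its replicates measure the spread between cultures and arrays and not between animals.

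The family is divided by sequence into subfamilies A to G. In macrophages, members of A and G are known for moving cholesterol and phospholipids out of the cell, members of B and C for exporting drugs, conjugates, cyclic nucleotides and lipid mediators, and members of D for bringing fatty acids into peroxisomes and vitamin B12 out of lysosomes. Several members of B sit in mitochondria and serve haem and iron-sulphur chemistry. The proteins of E and F have no membrane part and work at the ribosome.

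The arrays were alike in quality. The 75th percentile of the processed signal, the scanner software's background-subtracted brightness, was 347 to 554 intensity units per array, over local backgrounds of 36 to 41 units, with no saturated spot. By the scanner software's flag, the number of probes well above background was 15314 to 16708. Of 8 macrophage markers, 8 were well above background on all 4 arrays, among them Cd68 and Csf1r, while none of 5 lung epithelium markers was on any array. Of 3 measured lymphoid markers Cd3d was well above background on 3 arrays, and of 5 markers of fibroblasts and endothelium Cdh5 was on all 4, at a log2 level of -4.11 ± 0.30 (SD, n = 4). The part of such cells in the values below was not tested.

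Of the 41 genes, 20 (48.8%) had a probe well above background on all 4 arrays, 2 did on some arrays and 19 (46.3%) on none. Over all 16579 named genes the shares were 45.7% on all arrays and 48.2% on none, so the share in the family was near that over all genes. The subfamilies differed in their counts. Both measured genes of F and the single gene of E were detected on all arrays, as were 3 of 4 in D, 5 of 10 in C, 4 of 8 in G, 3 of 9 in B and 2 of 7 in A. These counts are a description and were not tested against each other. Detected members had signals of 22.3 to 7662 units, and 14 of the 19 members detected on no array stayed below 7 units. A probe's brightness depends on its sequence too, so levels of different genes are not ranked as transcript amounts, and a probe not well above background does not show that the transcript was absent.

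**Figure D1:**
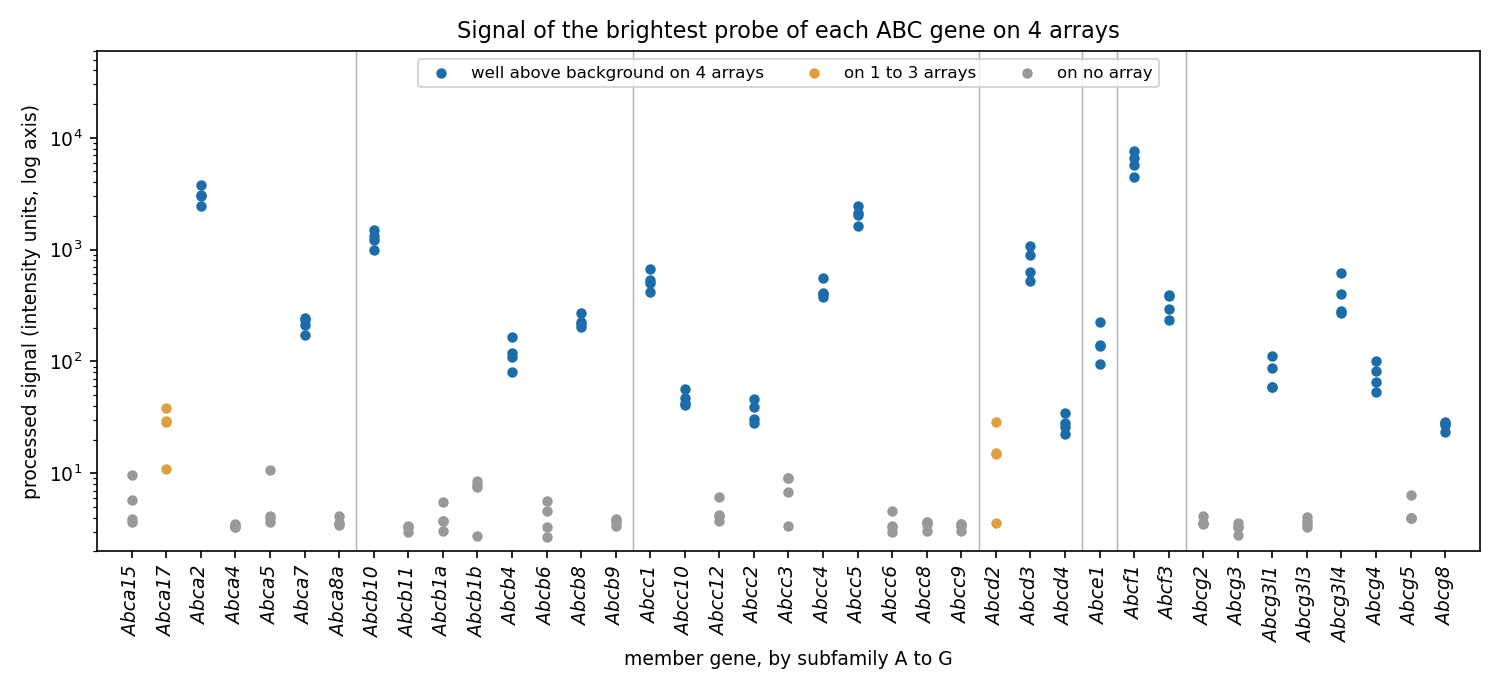
Processed signal (intensity units, log axis) of the brightest probe of each of 39 ABC genes, with a point for each of 4 arrays and vertical lines between subfamilies A to G. Colour gives the number of arrays with a signal well above background, and the 18 genes in grey stayed at or below 10.6 units.

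All 3 measured genes that act in translation were detected on every array. Abcf1, which supports the start of translation with the initiation factor eIF2, had signals of 7662, 4440, 6576 and 5724 units in replicates 1 to 4. Expressed as log2 of the signal over that array's 75th percentile, which is what a level means from here on, these were 4.15, 3.68, 3.57 and 3.79, with a mean of 3.80 ± 0.25 (SD, n = 4). Replicate 1 was the high one, and the other three lay close together. Abcf3, a second protein of this kind, gave 391, 236, 383 and 293 units, or levels of -0.15, -0.56, -0.53 and -0.50. Again replicate 1 stood above the rest. Abce1, the ATPase that splits ribosomes after termination, gave 136, 95.4, 227 and 141 units and lay at -1.59 ± 0.24, with replicate 3 highest and replicate 2 lowest. Highest over lowest array was 1.49-fold for both Abce1 and Abcf1 after scaling. The arrays also differed after scaling over the 7570 genes whose brightest probe was detected on all arrays. Among those genes replicate 3 was the lowest array for 45.3% and replicate 4 the highest for 33.6%.

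The partners of these proteins at the ribosome were nearly all present. Of 11 measured partner genes, 10 were detected on all arrays. By limma's variance test, explained with the spread of the members, none of the 10 was called and 4 had an unadjusted p under 0.05 (Etf1, Eif2s2, Eif2ak4 and Mcts1), a threshold passed by 6.67% of all tested genes. In the other partner lists none was called by limma, and Pdia3 and Rxrb had an unadjusted p under 0.05. Pelo, which rescues stalled ribosomes together with Abce1, lay at 2.32 ± 0.14 (SD, n = 4), and its partner Hbs1l at -1.69 ± 0.06. The release factor genes Etf1 and Gspt1 lay at 0.60 ± 0.31 and 0.38 ± 0.11. Gcn1, the ribosome-bound activator of the stress kinase coded by Eif2ak4, lay at 4.10 ± 0.16 and Eif2ak4 at -3.22 ± 0.69. Of the eIF2 subunits, Eif2s1 lay at 1.71 ± 0.23 and Eif2s2 at 1.46 ± 0.31, while Eif2s3 was well above background on 3 arrays. The reinitiation factors Mcts1 and Denr lay at 2.07 ± 0.38 and -1.59 ± 0.25.

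Subfamily D holds genes of peroxisomal and lysosomal transporters, of which 3 of 4 were detected on all arrays. Abcd3, the abundant 70-kDa peroxisomal membrane protein's gene, had signals of 899, 526, 1086 and 626 units. Its levels were 1.05, 0.60, 0.97 and 0.60, so replicates 1 and 3 lay together above replicates 2 and 4 (mean 0.81 ± 0.24, SD, n = 4). Abcd2, another peroxisomal fatty acid transporter gene, was well above background in replicate 3 alone, with signals of 3.58, 14.8, 29.0 and 15.2 units. Abcd4, which helps vitamin B12 leave the lysosome, lay at -3.98 ± 0.25, only a little over background at 22.3 to 34.4 units.

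Genes these transporters work with were mostly detected. Of 8 peroxisomal partners 7 were on all arrays. Pex19 and Pex3, which insert peroxisomal membrane proteins, lay at -0.85 ± 0.07 and -2.82 ± 0.04 (SD, n = 4), and Pex16 at 2.07 ± 0.22. The oxidation enzyme genes Hsd17b4 and Acaa1a lay at 0.35 ± 0.24 and 2.73 ± 0.18, and the thioesterase gene Acot8 at 3.15 ± 0.18. Acsl4 was well above background on 3 arrays. For vitamin B12, 3 of 5 measured genes were detected on all arrays. Lmbrd1, coding for the lysosomal partner of Abcd4, lay at -3.38 ± 0.26, Mmadhc at -3.74 ± 0.32 and the uptake receptor gene Cd320 at 1.64 ± 0.18, while Mmachc was detected on 3 arrays and the methionine synthase gene Mtr on none.

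In subfamily B, 3 of 9 genes were detected on all arrays, among them the mitochondrial transporter genes Abcb10 and Abcb8. Abcb10, an inner-membrane transporter needed for haem synthesis, had signals of 1330, 983, 1490 and 1216 units and levels from 1.43 in replicate 3 to 1.62 in replicate 1, a spread of 1.14-fold. Abcb8, another mitochondrial transporter, lay at -0.92 ± 0.10 (SD, n = 4). Abcb6, linked to porphyrin transport, stayed at 5.65 units or less. Of 9 measured haem and iron-sulphur partners 7 were detected on all arrays, with Alas1, the enzyme that opens haem synthesis, at 4.48 ± 0.16, the mitochondrial haem partner gene Tmem14c at 4.17 ± 0.14, Glrx5 at 3.10 ± 0.19, Iscu at 2.16 ± 0.12 and Fech, the enzyme that closes the pathway, at 0.57 ± 0.16. Nfs1 lay at -0.27 ± 0.09 and Ppox at -1.11 ± 0.20, and Cpox and the iron importer gene Slc25a37 were detected on 3 arrays each.

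Both P-glycoprotein genes of the rat, Abcb1a and Abcb1b, which code for the classical multidrug efflux pump, were not well above background. Abcb1a gave 3.04, 5.51, 3.76 and 3.75 units, and the brighter of 2 Abcb1b probes gave 2.73, 8.51, 7.85 and 7.46 units. Their neighbour Abcb4, the phosphatidylcholine exporter known from bile formation, was detected on all arrays by both of its probes, at -1.91 ± 0.15 and -3.26 ± 0.15 (SD, n = 4). Because these genes are close relatives in a row, part of the Abcb4 signal could come from the other transcripts if a probe does not separate them, which was not tested. The bile salt pump gene Abcb11 and the lysosomal peptide transporter gene Abcb9 were not detected by either of their probes. The TAP genes, which belong to subfamily B under other symbols and carry peptides into the endoplasmic reticulum for class I presentation, were detected: Tap1 lay at -1.07 ± 0.19 and Tap2 at 1.94 ± 0.19. All 5 measured partners of TAP were detected too, with Tapbp at 0.15 ± 0.11, B2m at 5.07 ± 0.25, Calr at 3.40 ± 0.15, Canx at 1.43 ± 0.16 and Pdia3 at 0.54 ± 0.41. The chloride channel gene Cftr, a member of C by sequence, was not.

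The promoter windows of Abcb4, Abcb1b and Abcb1a are shown because RefSeq places the 3 genes next to each other on chromosome 4 with no other protein-coding gene start between them, and 1 of them was detected and 2 were not. Each window runs from 250 bases before to 50 after the gene's start, from RefSeq on GRCr8, 5′ to 3′ on the gene's own strand. Capitals mark 5 motifs searched on both strands: the TATA box (TATAAA), the CCAAT box (CCAAT), the GC box (GGGCGG), the E-box (CACGTG) and the core of the antioxidant response element (TGACNNNGC).
Abcb4, chr4:26164096-26164395, minus strand: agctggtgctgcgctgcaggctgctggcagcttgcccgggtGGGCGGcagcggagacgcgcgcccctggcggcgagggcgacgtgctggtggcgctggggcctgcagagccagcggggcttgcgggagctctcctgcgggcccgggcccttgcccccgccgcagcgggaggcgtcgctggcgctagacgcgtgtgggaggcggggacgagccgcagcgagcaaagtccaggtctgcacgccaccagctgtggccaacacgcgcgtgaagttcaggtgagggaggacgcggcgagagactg
Abcb1b, chr4:26279980-26280279, minus strand: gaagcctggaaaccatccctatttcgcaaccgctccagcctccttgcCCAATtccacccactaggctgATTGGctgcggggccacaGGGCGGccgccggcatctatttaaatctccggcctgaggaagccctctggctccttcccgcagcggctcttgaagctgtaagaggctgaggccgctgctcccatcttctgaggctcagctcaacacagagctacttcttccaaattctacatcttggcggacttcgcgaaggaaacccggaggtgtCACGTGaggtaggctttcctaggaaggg
Abcb1a, chr4:26397599-26397898, minus strand: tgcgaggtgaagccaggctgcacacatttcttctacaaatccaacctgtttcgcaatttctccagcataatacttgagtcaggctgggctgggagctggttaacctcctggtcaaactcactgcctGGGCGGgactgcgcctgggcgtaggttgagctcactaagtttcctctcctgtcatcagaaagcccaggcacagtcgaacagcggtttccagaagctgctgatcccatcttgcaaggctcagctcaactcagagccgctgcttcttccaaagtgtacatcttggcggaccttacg
The window of Abcb4 was 74.3% G and C with 35 CG dinucleotides and held 1 GC box. That of Abcb1b was 58.3% G and C with 15 CG dinucleotides and held 2 CCAAT boxes, 1 GC box and 1 E-box, and that of Abcb1a was 53.7% with 10 CG dinucleotides and 1 GC box.

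The measured genes of subfamily C split into a detected and an undetected set of equal size. Abcc5, an exporter of cyclic nucleotides, had signals of 2028, 1621, 2431 and 2110 units and levels of 2.23, 2.22, 2.13 and 2.35. Abcc1, the exporter of leukotriene C4 and glutathione conjugates, gave 534, 418, 672 and 498 units. Scaled, these were 0.30, 0.27, 0.28 and 0.26, the smallest spread among the 20 detected members (SD 0.02), with 1.03-fold between the highest and the lowest array. That rank did not hold under all alternatives. With the normexp background correction the SD of Abcc1 was 0.09, above 0.04 for Abcf3. With the 75th percentile taken over detected probes it was 0.06, above 0.03 for Abca2. Abcc4, which exports cyclic nucleotides and prostaglandins, lay at 0.00 ± 0.08 (SD, n = 4). Abcc10 had the largest spread of the 20, with 40.9, 42.3, 46.6 and 57.1 units and levels of -3.40, -3.03, -3.57 and -2.86, 1.64-fold between replicates 4 and 3. A signal near background accompanied this spread, and with the normexp background correction the SD of Abcg3l4 was larger (0.31 against 0.28). Abcc2, a conjugate exporter best known from liver, lay at -3.61 ± 0.17, again near background at 28.0 to 45.9 units.

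Undetected in subfamily C were Abcc3, Abcc6, Abcc8, Abcc9 and Abcc12. Abcc3, another exporter of conjugates, stayed at 3.40 to 9.15 units. Abcc8 and Abcc9 code for the sulphonylurea receptors of ATP-sensitive potassium channels, and the channel subunit genes Kcnj8 and Kcnj11 were not well above background either. A list of enzymes that make conjugates and of regulators of exporter genes was detected in part, with 6 of its 11 genes on all arrays. Gstp1, Gsto1, Mgst1 and Mgst2 lay at 3.72 ± 0.18, 3.72 ± 0.15, 3.56 ± 0.06 and 3.75 ± 0.06 (SD, n = 4), and Ugt1a6 at 2.74 ± 0.16. Nfe2l2, the NRF2 gene and a known regulator of exporter genes, lay at 0.89 ± 0.12, Nr1i2 was detected on 1 array, and Gstm1, Ahr, Nr1i3 and Ltc4s, the leukotriene C4 synthase gene, on none. Other membrane transporters, not all of them exporters, and linkers that anchor membrane proteins were detected in 6 of 8 cases. Slc29a1 lay at 0.56 ± 0.13, Slc47a1 at -0.53 ± 0.10, Slco2b1 at -2.15 ± 0.32 and Slc22a4 at -3.40 ± 0.31. The linker genes Msn and Rdx lay at -1.40 ± 0.01 and -1.63 ± 0.19, while Slco4a1 and Ezr were not detected.

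Of subfamily A, 2 genes were detected on all arrays. Abca2, a transporter of lysosomes and endosomes linked to lipid handling, was printed on 10 spots, of which 9 or 10 per array were used. Its signals were 3027, 2452, 3768 and 3074 units and its levels 2.80, 2.82, 2.76 and 2.89, within 1.09-fold of each other. The SD between its spots on 1 array was 0.04 to 0.08, beside an SD of 0.05 between arrays. Abca7, a phospholipid transporter linked to phagocytosis, lay at -1.01 ± 0.17 (SD, n = 4). Replicate 3 was its lowest array, as for 45.3% of all genes detected on all arrays. Abca17 was well above background on 3 arrays, with 28.5, 10.9, 38.0 and 29.4 units, and replicate 2 was the low one. Abca4, the retinal transporter gene, and Abca5, Abca8a and Abca15 were not detected. Abca4 and Abcd3 lie 1 protein-coding gene start apart on chromosome 2, the one undetected and the other detected on all arrays.

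Subfamily G included sterol exporters and a rodent cluster related to the drug exporter gene Abcg2. Abcg2 itself was not well above background, with 3.55 to 4.14 units. Of the cluster, Abcg3l4 was detected by 2 of its 3 probes, and Abcg3l1 at -2.50 ± 0.24 (SD, n = 4), while Abcg3 and Abcg3l3 were not. The brightest Abcg3l4 probe gave 398, 271, 614 and 282 units and levels of -0.12, -0.36, 0.15 and -0.56, with replicate 3 highest and replicate 4 lowest. As near copies of each other, these genes are uncertain by name wherever a probe fits more than 1 of them. Abcg4, a sterol exporter gene best known from brain, lay at -2.56 ± 0.15, with spot SDs of 0.08 to 0.20 between its 2 spots.

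Abcg5 and Abcg8 code for the partner proteins of 1 plant sterol exporter and are known to share a promoter. Abcg8 was detected by 1 of 2 probes, at 27.2, 28.0, 28.7 and 23.5 units, near background and within 1.56-fold after scaling (-4.01 ± 0.28, SD, n = 4). Its other probe stayed at 2.77 to 3.40 units, and the probe of Abcg5 at 3.98 to 6.38 units. The windows of both genes are shown because they hold 295 bases in common, read on opposite strands, with the same motifs marked as above.
Abcg8, chr6:15717681-15717980, minus strand: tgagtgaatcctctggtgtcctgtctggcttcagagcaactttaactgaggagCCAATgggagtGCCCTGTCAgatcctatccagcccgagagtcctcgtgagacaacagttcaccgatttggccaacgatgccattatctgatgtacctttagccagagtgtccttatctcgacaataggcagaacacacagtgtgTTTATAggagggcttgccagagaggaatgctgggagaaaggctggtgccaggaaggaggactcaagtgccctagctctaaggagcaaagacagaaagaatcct
Abcg5, chr6:15717686-15717985, plus strand: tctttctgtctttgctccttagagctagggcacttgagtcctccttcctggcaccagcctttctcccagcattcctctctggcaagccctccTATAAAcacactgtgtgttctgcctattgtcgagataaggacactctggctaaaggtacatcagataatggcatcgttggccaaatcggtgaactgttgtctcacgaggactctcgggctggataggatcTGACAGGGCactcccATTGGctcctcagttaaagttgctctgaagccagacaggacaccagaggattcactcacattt
Each held a TATA box, a CCAAT box and an antioxidant response core match, and both had 5 CG dinucleotides.

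Of 10 genes for regulators and carriers of sterol efflux, 9 were detected on all arrays. The liver X receptor genes Nr1h3 and Nr1h2 lay at 4.20 ± 0.19 and 2.30 ± 0.16 (SD, n = 4), Pparg at 4.07 ± 0.14 and Rxrb at 0.41 ± 0.34. The lysosomal cholesterol genes Npc2 and Npc1 lay at 3.69 ± 0.15 and 1.58 ± 0.14, Cyp27a1 at -0.91 ± 0.18, Rxra at -3.11 ± 0.27 and Apoe at -3.68 ± 0.08. Ppard was detected on 2 arrays.

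**Figure D2:**
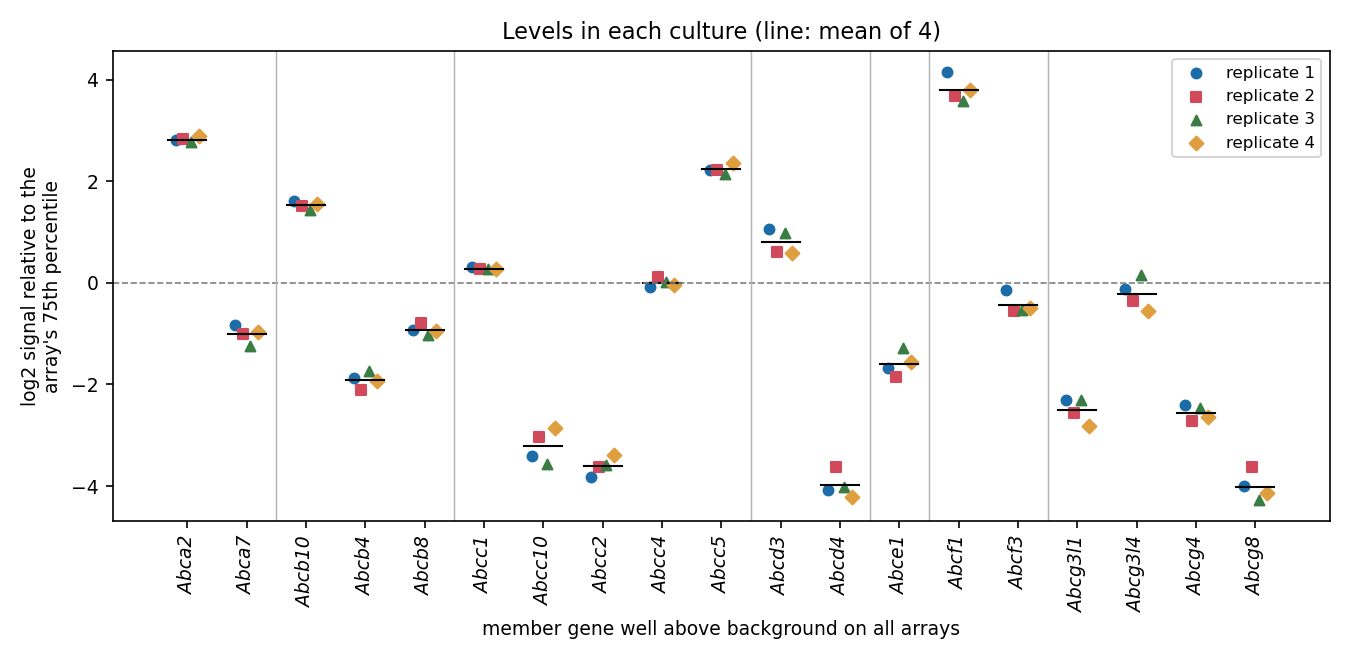
Log2 signal relative to the array's 75th percentile for 19 ABC genes well above background on all arrays, with a symbol per replicate and a line at the mean of 4. Abcc1 shows 4 nearly equal values (SD 0.02), and 7 genes lie above 0 on average, with the 4 values of Abcc4 on both sides of 0.

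Probes of the same gene often disagreed in brightness. Of 14 member genes with several probes, all probes were detected in 3, none on all arrays in 8, and in 3 some were and some were not. The detected probes of Abcb10 lay 1.03 apart on the log2 scale, those of Abcb4 1.35 and those of Abcc4 2.01. For Abcc1 the second probe was not well above background on any array, so the gene's call rests on 1 of 2 probes. The same holds for Abcg8. Where both probes gave a signal, their changes between arrays could be set side by side. Both detected Abcg3l4 probes were highest in replicate 3 (0.37 and 0.35 above their own means) and lowest in replicate 4 (0.34 and 0.32 below). The third Abcg3l4 probe, well above background on 1 array, lay 4.45 below the brightest. It was highest in replicate 2 (0.34 above its mean). The Abcb10 probes deviated in the same direction on each array, both highest in replicate 1 (0.09 and 0.15 above). Those of Abcb4 and Abcc4 did not: the Abcb4 probes were 0.17 above and 0.20 below their means in replicate 3, and the Abcc4 probes 0.11 above and 0.05 below in replicate 2.

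**Figure D3:**
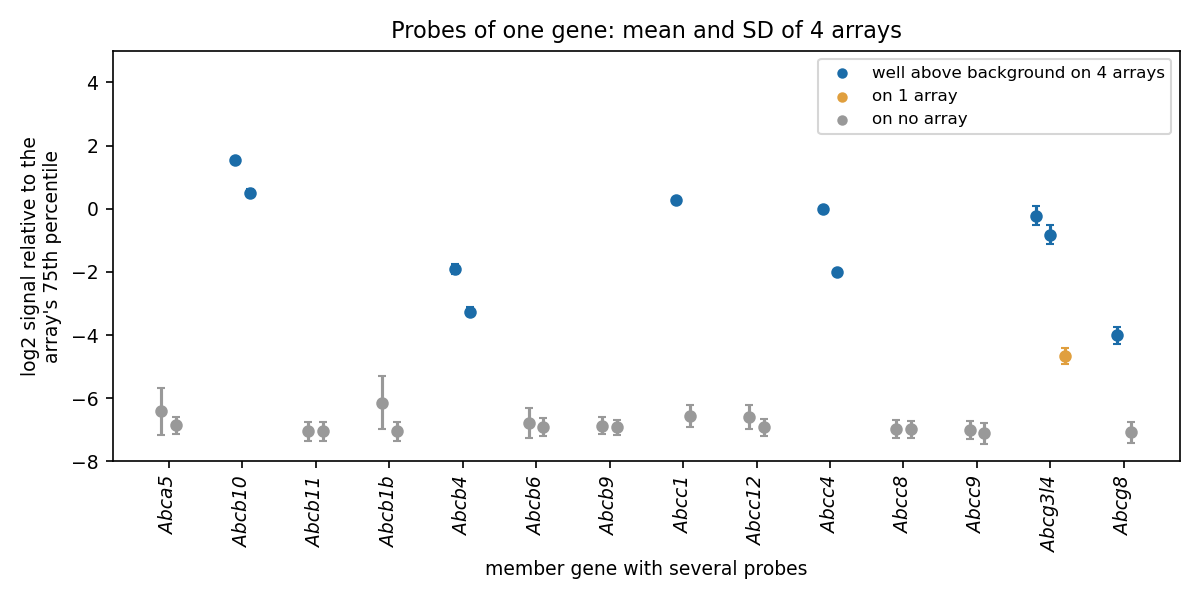
Mean and SD over 4 arrays of the log2 signal of every probe of the 14 ABC genes with several probes, coloured by the number of arrays with a signal well above background. Abcc1 and Abcg8 each have a probe detected on all arrays and another at background.

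Whether any detected member varied between cultures beyond genes of like level was tested over 7570 genes. Each gene's variance over 4 arrays was divided by limma's prior variance for its level, and p-values were adjusted by the Benjamini-Hochberg method over all 7570. None of the 20 members was called by limma at an adjusted p under 0.05 (smallest adjusted p = 0.646), where 0.515% of all tested genes were. An unadjusted p under 0.05 was found for 1 member, Abcg3l4, against 6.67% of all genes by limma. Its adjusted p was 0.646, its SD 0.30, and its highest and lowest arrays were 1.63-fold apart. Over the alternatives its adjusted p ran from 0.275 to 0.987 by limma. The median SD of the 20 members was 0.18, against 0.16 for all tested genes. The order turned in 4 of 12 alternatives, to 0.14 against 0.15 with the normexp background correction, 0.12 against 0.16 with only probes beyond column 72, 0.13 against 0.16 without replicate 1 and 0.14 against 0.17 without replicate 2. Of the 20 members, 16 stayed within 1.5-fold between their highest and lowest arrays. Lack of a call does not show a steady level. The gap between 1 array and the other three was large for its range (over the 95% critical value for 4 samples) in 1 of the 20, Abcf3, against 5.46% of all tested genes.

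The deviations were also set beside place on the array. Of the 20 members, 13 had a spot in columns 1 to 72 (65% against 47.4% of all tested genes). A probe with several spots was placed by its lowest column, so Abca2 and Abcg4 are among the 13 though they also had spots beyond. In replicate 1 the median deviation of these 13 from their own means was 0.15, with 8 of 13 above their mean, while all genes there had a median of 0.04 with 58.7% above. The share of these 13 above their mean was thus near that of all genes in the same columns. The 7 members printed beyond column 72 had a median deviation of 0.02 in replicate 1, with 4 of 7 above their mean. All genes there had a median of -0.01, with 44.9% above. Abcf1 (0.35 above its mean in replicate 1), Abcf3 (0.29) and Abcd3 (0.25) all lay in columns 1 to 72. Of the same 13, Abcc2 (-0.20), Abcc10 (-0.19), Abce1 (-0.08), Abca2 (-0.02) and Abcb8 (-0.01) were below their means in replicate 1. Without replicate 1 the SD of Abcf3 was 0.03 instead of 0.19, and that of Abcf1 0.11 instead of 0.25. In both genes replicate 1 lay above the other arrays, which were closer together, so leaving it out was bound to lower the SD. The SD of Abcd3, whose replicates 1 and 3 lay together, was 0.22 instead of 0.24 without replicate 1. Those of Abce1 (0.29 instead of 0.24) and Abcc10 (0.37 instead of 0.33), also in these columns, were larger without it. The part of array position in these values was not tested.

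**Figure D4:**
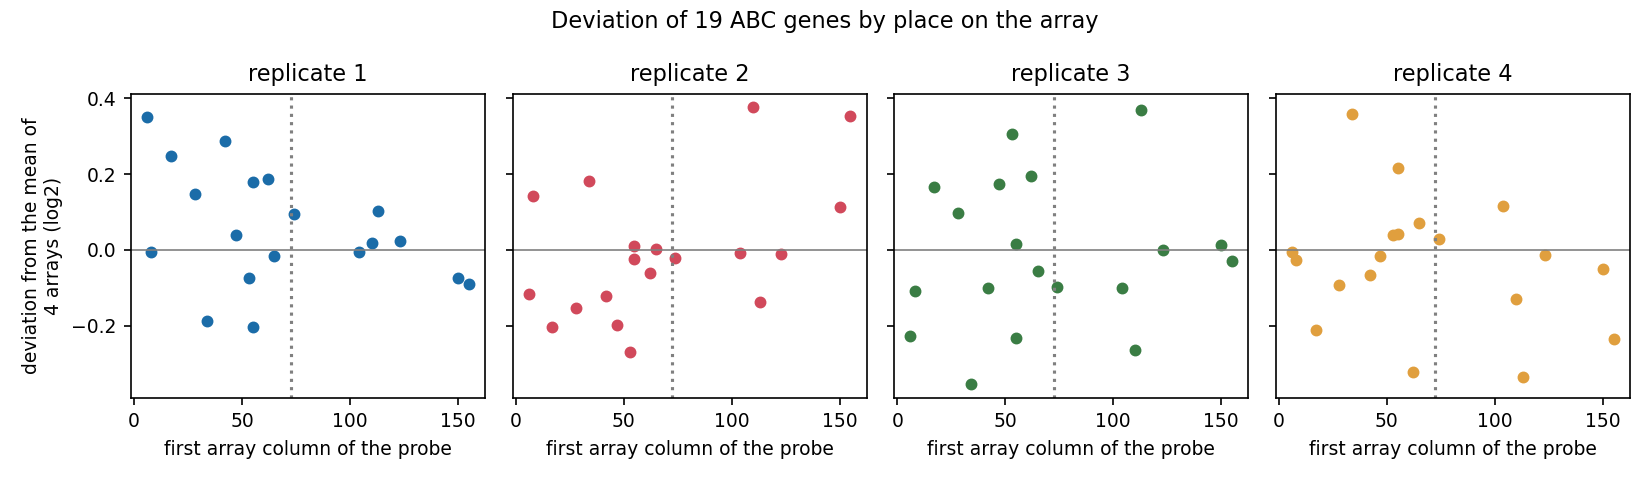
Deviation of each of 19 detected ABC genes from its own mean of 4 arrays (log2) against the first array column of its probe, in a panel per replicate, with a dotted line after column 72. In replicate 1 the points beyond the line lie between -0.09 and 0.10, and those before it between -0.20 and 0.35.

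Promoter windows of 32 of the 41 genes were in the RefSeq table. Their median share of G and C was 58.7%, against 52.3% over 27457 promoters of 300 bases, and their median count of CG dinucleotides was 15.5 against 7. Those promoters were not limited to genes measured on the arrays. Among 17 members detected on all arrays the median CG count was 24, with a range of 5 to 50, and 14 of 17 had 10 or more. Among 14 detected on no array the median was 12, with a range of 1 to 47, and 9 of 14 had 10 or more. These shares were 82.4% and 64.3%, against 44.1% of all promoters. The ranges overlapped almost fully, as Abca5 (47 CG dinucleotides) was not detected and Abcc2 (5) was. A GC box was found in 22 of 32 member windows (68.8%, against 34.9% of all promoters), a CCAAT box in 12 (37.5% against 37.7%), a TATA box in 4 (12.5% against 14.3%), an antioxidant response core in 5 (15.6% against 12.2%) and an E-box in 3 (9.38% against 6.65%). Matches of different motifs did not overlap in any member window, but overlapping matches of 1 motif were counted separately, as in Abcc1, where 4 of its 5 GC boxes overlap another. The TATA box, CCAAT box and antioxidant response core in the shared bases of Abcg5 and Abcg8 enter these counts once for each gene. The windows of Abcg3l1, Abcg3l3 and Abcg3l4 resemble each other, and the GC box of each is counted separately. A match is a run of letters and not a shown binding site.

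**Figure D5:**
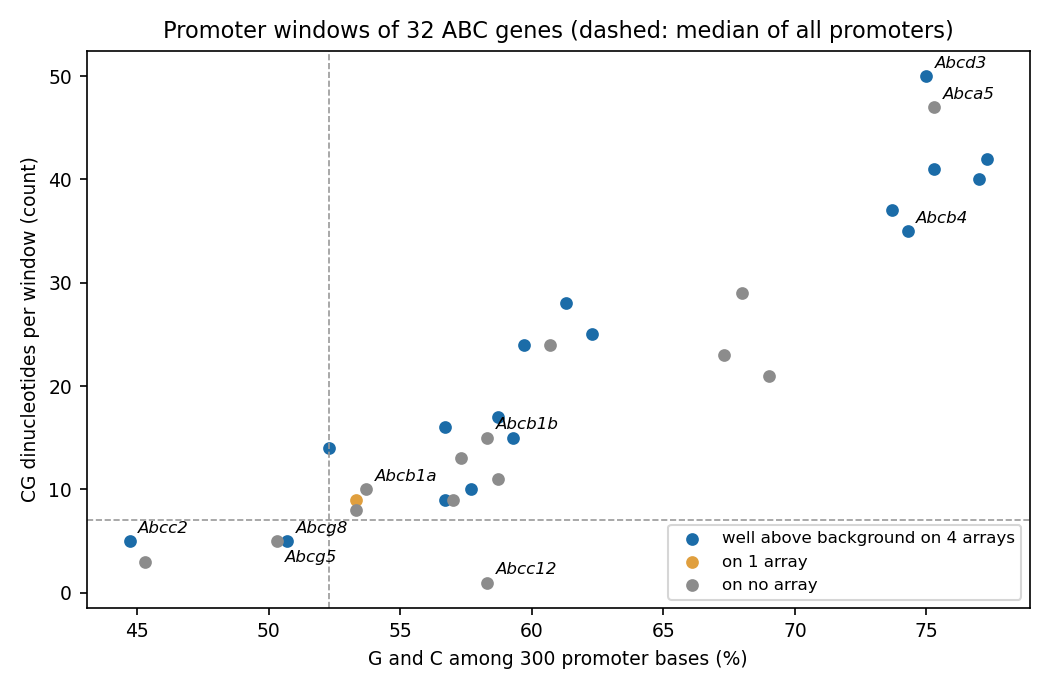
CG dinucleotides per 300-base promoter window (count) against the share of G and C (%), for 32 ABC genes coloured by detection, with dashed lines at the medians of all promoters. Detected and undetected genes overlap over most of both axes, from Abcc12 with 1 CG dinucleotide to Abcd3 with 50.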

How the data were processed

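RNA of 4 exposed cultures was measured on 1-colour Agilent arrays. Agilent Feature Extraction 11.0.1.1, named in the submitters' processing notes and per the file headers, produced the deposited spot intensity (processed signal), with background subtracted, spatial trend removed and no scaling across arrays. Spots flagged as outliers were left out (634 to 669 per array). Levels are log2 of the signal minus the array's 75th percentile, averaged over a probe's spots. Detection of a probe on an array required the well-above-background flag on more than 0.5 of the spots, and a gene counted if any probe passed on all 4 arrays. Probes were named through accessions in RefSeq's table of GRCr8 (21109 of 45598), and the brightest probe stood for a gene.

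The test of spread used limma (version 3.58.1, R 4.3.3; trended, robust prior, 24.3 prior and 3 residual degrees of freedom), tested on simulated data. A first form of this test, with a separate prior degree of freedom for each gene, failed that check and called no gene of the data. It was replaced by the common value after those results were seen. Detected members are named with their values, and all 4 arrays are given for the members with the smallest and largest SD, each subfamily's brightest and any with an array far apart. Undetected members whose signals are given were picked after their values were seen. The members and lists were chosen with earlier results of these data known. Promoter motifs, added after the data were seen, were searched with Python 3.11.15. Protein and probe sequences were not used here. Array number limits the precision. Some genes are not reported here by name.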

Additional observations from a re-analysis of the deposited data

Results flagged for a closer look

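In Abcf3 a single array stood apart: replicate 1 lay at -0.15 and the others between -0.56 and -0.50, a gap of 0.862 of the whole range, above the 95% critical value for 4 samples. It was 1 of 20 members, while 5.46% of the 7570 genes tested had such a gap and chance gives about 1 in 20. After the normexp background correction the SD of Abcf3 was 0.04.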

How the results depend on the processing

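The count of members detected on all arrays (20 of 41) was 20 to 22 with a weaker detection flag, with 1 array sufficing, with the brightest probe alone, with flagged spots kept and without any 1 replicate. With only probes beyond column 72, an alternative chosen after seeing the data, it was 8 of 19, as fewer genes have such a probe. No member was called more variable by limma under any of the 12 alternatives, where 0% to 2.72% of all tested genes were. With quantile normalization, the 75th percentile over detected probes or a prior without trend or robust estimation, no gene at all was called. An unadjusted p under 0.05 by limma was found for 0 to 2 members, against 5.32% to 7.99% of all tested genes. The median SD (0.18) was 0.28 without a filter on dim genes, when 41 members were included, 0.12 with only probes beyond column 72 and 0.13 to 0.20 without 1 replicate. With the 75th percentile taken over detected probes, every level dropped by about 1.72. Relative to the main levels, normexp (offset 50, on median spot signals, as mean signals were not used) moved 13 of 20 members by more than their SD, at most by 1.61 (Abcg8, from -4.01 to -2.40). Averaging detected probes moved Abcb10, Abcb4 and Abcc4. Quantile normalization moved none. Signals close to background limit Abcc2, Abcc10, Abcd4 and Abcg8.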
